A study of Mus musculus with 6 samples.

Results

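The genes described here are 10 interferon-gamma inducible GTPases of the mouse, 6 of the immunity-related GTPase (IRG) family and 4 guanylate-binding proteins (GBPs), out of 22180 genes tested on 6 arrays. The family was chosen by name with the IL-33 against PBS differences of these arrays in view, and within it a gene's probe set was to be selected on the highest mean over the 6 arrays among those annotated to it alone. No measured member had more than 1 such probe set, so that step chose nothing here. Of the 10, 8 could be measured on their own. Ifi47 and Gbp2 lay only on probe sets annotated to a further gene and were not separable. RNA came from Raw 264.7 cells, an established monocyte and macrophage line of the mouse, grown in medium with 10% serum, starved, and then kept in medium with 2% serum. Samples labelled IL-33 received that cytokine of the IL-1 family at 50 ng/ml, and samples labelled PBS served as the control, with 3 arrays in each group. Both groups share the starvation and the low serum, and how long the treatment lasted is not given in the labels.

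IRG and GBP proteins bind and hydrolyse GTP on membranes. In macrophages they are known as genes that interferon-gamma switches on, with the factor IRF1 among those that act on them, and many also respond to type I interferon. Effector IRG proteins and GBPs coat the vacuoles or surfaces of intracellular parasites and bacteria, while the Irgm proteins sit on the cell's own membranes and hold the effectors inactive there.

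The measured members had higher means in the IL-33 group by small amounts, with log2 differences from 0.13 to 0.77 and a median of 0.43. Over all genes the median difference was -0.01. At an adjusted p under 0.05 (limma over all genes, Benjamini-Hochberg), Gm12250 and Igtp rose, by 1.70-fold and 1.37-fold, and the other 6 measured members did not pass. Passing and higher were 2 of 8 members, where 0.275% of all genes were, and passing and lower were 0 of 8, where 0.316% were. Either way, 0.591% of all genes passed. A difference above 0 was found in 8 of 8 members and in 47.9% of all genes. Because the family was proposed with these differences known, these counts describe it and are no independent evidence of a direction. In 7 of the 8 members the lowest IL-33 value lay above the highest PBS value, which held for 10.3% of all genes, and the reverse held for 0 of 8 and for 10.1%. An unadjusted p under 0.05 with a higher IL-33 level was reached by 8 of 8 members and by 6.42% of all genes, and with a lower level by 0 of 8 and by 6.74%. Directions follow the sample titles. The names of the arrays in the sample descriptions carry IL for samples titled PBS and P for samples titled IL-33, and with exchanged labels every direction given here would turn.

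On array quality, the values of different arrays correlated across genes at r = 0.9967 to 0.9980, and array medians lay between 5.31 and 5.36 (log2). Arrays give no count depth, so their number limits the precision. Since no label says that the 3 samples of a group were grown apart, a p-value reflects only how these samples scatter, and that scatter may be technical. The macrophage markers Cd68, Lyz2 and Cd14 had mean log2 levels of 12.76, 12.88 and 12.30 in the IL-33 arrays, while the mannose receptor Mrc1 was at 4.56. Of 10 macrophage markers none passed (limma), and 1, Adgre1, was lower at an unadjusted p under 0.05. The sum of their log2 values ran from 103.89 to 104.35 in the PBS arrays and from 103.10 to 103.89 in the IL-33 arrays. Of 9 T and NK cell markers, genes of cells that make interferon-gamma, none passed and 0 had an unadjusted p under 0.05 (limma), and their summed log2 values ran from 42.48 to 43.16 and from 42.75 to 43.84. Among 4 B cell markers Ighm rose by 0.65 (log2, adjusted p = 0.0263, limma) and the other 3 had differences from -0.02 to 0.05. The sum of the B cell markers ran from 23.85 to 24.63 in PBS and from 24.90 to 25.02 in IL-33 arrays, and its part in the member differences was not tested. Of 5 fibroblast and 7 epithelial and endothelial markers none passed and 0 and 1 had an unadjusted p under 0.05 (limma), with sums of 26.45 to 26.58 and 38.46 to 38.72 in PBS arrays and of 26.23 to 26.61 and 37.04 to 38.33 in IL-33 arrays. The table has no detection calls, so no marker could be called absent.

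Stretches before the start sites are shown because most promoter entries of the members share a motif known from interferon-responsive genes. They are given for the 7 measured members that had an entry in the RefSeq promoter table (build GRCm38.p6). Capitals mark GAAANNGAAA on either strand, the core of the interferon-stimulated response element bound by IRF factors, and overlapping matches are capitalised together. Each stretch is 60 bases on the gene's own strand, all of them upstream of the start, and was cut around its matches. Every stretch shown therefore holds the motif by choice, and a start site without a match gave no stretch.
Igtp: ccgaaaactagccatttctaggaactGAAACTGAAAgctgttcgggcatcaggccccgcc
Irgm2: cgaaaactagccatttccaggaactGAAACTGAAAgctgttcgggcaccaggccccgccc
Irgm1: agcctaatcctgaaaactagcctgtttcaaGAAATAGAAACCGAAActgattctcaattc
Gm12250: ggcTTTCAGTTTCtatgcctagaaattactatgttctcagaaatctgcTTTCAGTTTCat
Gbp7: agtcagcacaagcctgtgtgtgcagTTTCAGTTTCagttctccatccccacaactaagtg
Gbp3: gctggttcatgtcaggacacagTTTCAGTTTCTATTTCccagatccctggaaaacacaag
Gbp5: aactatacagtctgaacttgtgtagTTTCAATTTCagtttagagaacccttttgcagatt

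These stretches lie at chr11:58199496-58199555 (+) for Igtp, chr11:58214888-58214947 (+) for Irgm2, chr11:48871421-48871480 (-) for Irgm1 and chr11:58183749-58183808 (+) for Gm12250. Those of the GBP genes lie at chr3:142530258-142530317 (+) for Gbp7, chr3:142559977-142560036 (+) for Gbp3 and chr3:142496744-142496803 (+) for Gbp5. In the 300-base promoters of the table, 8 of the 10 entries for members held GAAANNGAAA, and 3.44% of all 32851 promoters of the same length did. The 2 entries without it were that of Ifi47 and the second of 2 start sites of Gbp3. Gm12250 held 2 separate copies, and Irgm1 and Gbp3 each held 2 that overlap. The gamma-activated site TTCNNNGAA, which reads alike on both strands, was found in 5 of the 10 entries and in 8.30% of all promoters. The members with it were Igtp, Irgm2, Gm12250, Gbp5 and Gbp7. In Igtp and Irgm2 its letters were TTCTAGGAA and TTCCAGGAA, starting 11 bases before the other motif in both genes. Among the other family genes, Tgtp1 and Tgtp2 held both motifs as well, so this layout is not particular to Igtp and Irgm2. In these 2 genes TTCNNNGAA began at -88 and -81 relative to the start, and GAAANNGAAA at -77 and -70. Gm5431, 9930111J21Rik2 and Irgq held neither motif, and 9930111J21Rik1 and Gbp2b held GAAANNGAAA only. No entry was used for Irgc1, the GBP genes of chromosome 5 or the family genes of chromosome 18. A match describes letters only and is not a measured binding site.

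Igtp and Irgm2 are neighbours on chromosome 11, and their upstream stretches of 250 bases were alike, with 194 of 215 aligned bases identical (90.2%). Whether the array probes of such related genes also bind each other's transcripts was not tested, since probe sequences were not used here.

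Among the Irgm regulators, Igtp (Entrez gene 16145), also called Irgm3, is a protein of the endoplasmic reticulum and lipid droplets. The log2 values of Igtp were 8.73, 8.88 and 8.81 in PBS replicates 1 to 3 and 9.25, 9.23 and 9.31 in IL-33 replicates 1 to 3. The groups were 0.36 apart at their nearest values, and within each group the arrays stayed close. The mean rose from 8.81 ± 0.07 to 9.26 ± 0.04 (SD, n = 3 each), a difference of 0.46 ± 0.06 (SE) with an adjusted p of 0.0288 (limma). The adjusted p of Igtp lay between 0.0704 and 0.153 in the 6 fits that left out 1 array, so the call was lost whichever array was missing, while the difference stayed between 0.42 and 0.49.

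Irgm2 (Entrez gene 54396) encodes a Golgi-associated regulator of the same group. Its PBS values were 8.47, 8.52 and 8.51 and its IL-33 values 8.80, 8.81 and 9.01 (log2). IL-33 replicate 3 was the highest, and the groups did not overlap. The difference was 0.37 ± 0.07 (log2, SE), with an adjusted p of 0.0856 (limma), so Irgm2 did not pass.

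Irgm1 (Entrez gene 15944), the third regulator, is a Golgi and lysosome protein needed for resistance to many intracellular microbes. PBS arrays gave 9.14, 9.21 and 9.16 and IL-33 arrays 9.30, 9.29 and 9.30 (log2). All IL-33 values lay above all PBS values, but by no more than 0.09 at the nearest. The difference of 0.13 (95% interval 0.02 to 0.24) was the smallest of the 8 members, and its adjusted p was 0.309 (limma). That interval lay below the interval of Igtp, which ran from 0.32 to 0.59. The difference between the 2 genes was not itself tested.

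Of the effector IRG genes, Gm12250 (Entrez gene 631323) encodes Irgb10, which acts on bacterial membranes together with GBPs. Its PBS values were 5.76, 5.94 and 5.64 and its IL-33 values 6.37, 6.63 and 6.65 (log2). IL-33 replicate 1 was the lowest of its group and still lay 0.43 above the highest PBS value. Gm12250 rose from 5.78 ± 0.15 to 6.55 ± 0.15 (SD, n = 3 each), the largest difference among the 8 members at 0.77 ± 0.10 (log2, SE), with an adjusted p of 0.0358 (limma). Without IL-33 replicate 1 its adjusted p was 0.0398, and in the 5 fits without another array it lay between 0.0652 and 0.181.

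Iigp1 (Entrez gene 60440) encodes Irga6, an effector that loads onto vacuoles of the parasite Toxoplasma. It gave 4.75, 5.09 and 5.07 in PBS and 6.06, 5.42 and 5.44 in IL-33 arrays (log2). IL-33 replicate 1 stood above its group, and its SD of 0.36 was the widest of any member. The difference was 0.67 ± 0.18 (log2, SE) with an adjusted p of 0.191 (limma), and it was 0.46 without IL-33 replicate 1. The remaining effector, Ifi47 or Irgd, shares its probe set with the olfactory receptor gene Olfr56. That probe set read 6.88, 7.22 and 7.22 in PBS and 7.65, 7.48 and 7.51 in IL-33 arrays (log2). It did not overlap between groups and differed by 0.44 ± 0.11 (log2, SE), but which of the 2 genes gave the signal cannot be told apart, and it did not pass over all probe sets (adjusted p = 0.329, limma).

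**Figure D1:**
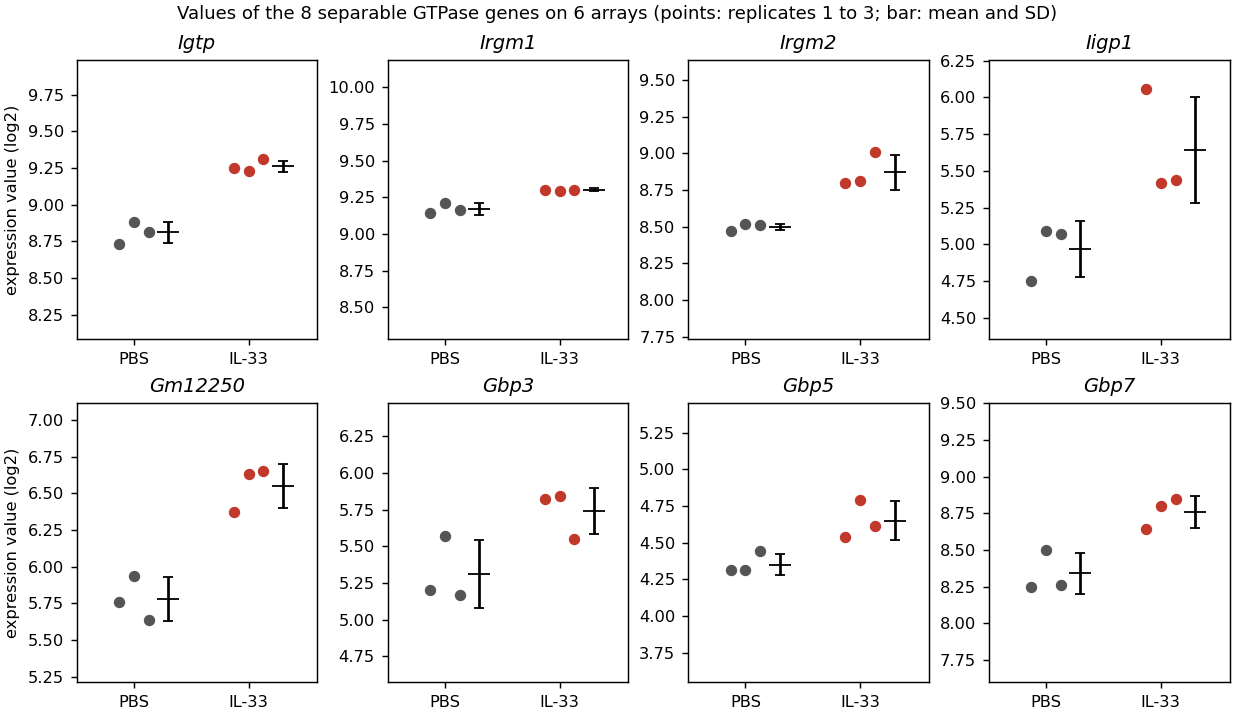
Log2 expression values of the 8 separable members on each array, PBS in grey and IL-33 in red, with the mean and SD beside the points; each panel spans the same number of log2 units. The groups are apart in 7 panels and meet in that of Gbp3, and in the panel of Iigp1 the array IL-33 replicate 1, at 6.06, stands above the other 2 IL-33 arrays.

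The 3 measured GBP members lie next to each other on chromosome 3, and none of them passed (limma), though all 3 had an unadjusted p under 0.05. Gbp7 (Entrez gene 229900) encodes a GBP that acts in host defence of macrophages against bacteria. Its log2 values were 8.25, 8.50 and 8.26 in PBS and 8.64, 8.80 and 8.85 in IL-33 arrays. PBS replicate 2 was the highest control, 0.14 below the lowest IL-33 array. The difference of Gbp7 was 0.43 ± 0.09 (log2, SE), with an adjusted p of 0.107 (limma).

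Gbp3 (Entrez gene 55932), a less studied family member, was the single measured member whose groups overlapped. It read 5.20, 5.57 and 5.17 in PBS and 5.82, 5.84 and 5.55 in IL-33 arrays (log2). PBS replicate 2 was slightly above IL-33 replicate 3. The difference was 0.42 ± 0.13 (log2, SE) with an adjusted p of 0.231 (limma).

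Gbp5 (Entrez gene 229898), known for its part in NLRP3 inflammasome activation, read 4.31, 4.31 and 4.44 in PBS and 4.54, 4.79 and 4.61 in IL-33 arrays (log2). The groups did not overlap and were 0.11 apart. The difference was 0.30 ± 0.08 (log2, SE), with an adjusted p of 0.181 (limma). RMA values near the low end of the scale are compressed, and the lower quartile of the arrays lay between 4.07 and 4.11.

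Gbp2, which targets vacuoles and bacteria and carries a lipid anchor, was read together with its neighbour Gbp2b. Their shared probe set gave 6.43, 6.43 and 6.27 in PBS and 6.13, 6.22 and 6.13 in IL-33 arrays (log2). It was thus lower in every IL-33 array, opposite to Gbp3, Gbp5 and Gbp7, with a difference of -0.22 ± 0.07 (log2, SE) and an adjusted p of 0.420 over all probe sets (limma). The probe set of Gbp2b alone differed by -0.13 ± 0.09 (log2, SE), and its groups overlapped. No value for Gbp2 alone can be given.

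Within the PBS group the same array was high over most of these genes. PBS replicate 2 was the highest PBS array in 7 of the 8 members and replicate 1 the lowest in 5. Averaged over the members, the deviation from each gene's mean was -0.30, -0.12 and -0.24 in PBS replicates 1 to 3 (log2). In IL-33 replicates 1 to 3 it was 0.22, 0.23 and 0.21. On this average the IL-33 arrays were nearly level with each other, and the PBS arrays were less so. Gene by gene the IL-33 arrays also differed, with replicate 3 the highest of them in 5 of the 8 members and replicate 1 the lowest in 4. Without PBS replicate 2 the median member difference was 0.50 in place of 0.43.

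**Figure D2:**
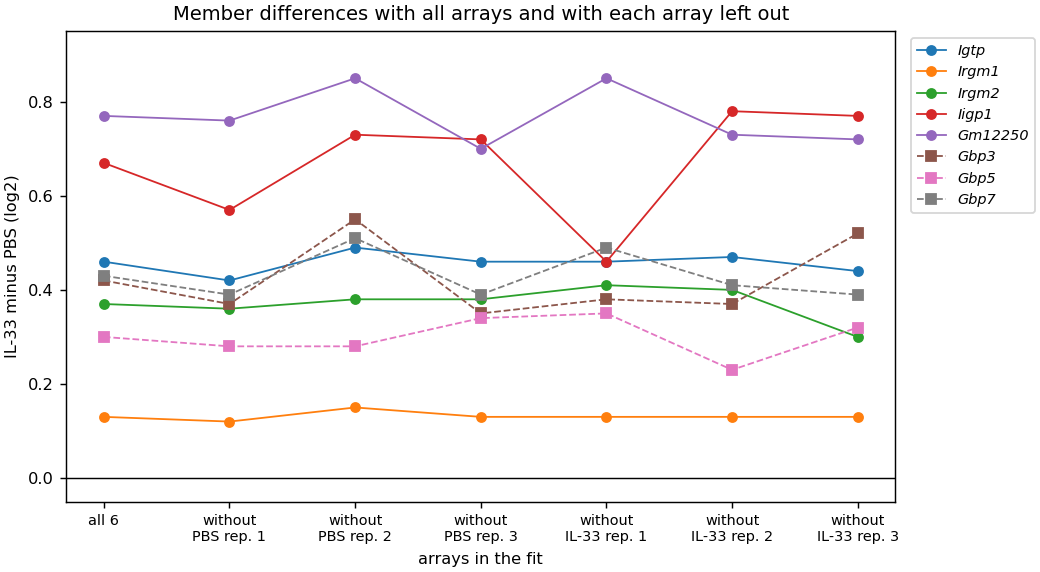
Difference between IL-33 and PBS means (log2) of the 8 members with all 6 arrays and with each array left out in turn; circles are IRG genes and squares GBP genes. All differences stay above 0, from 0.12 for Irgm1 without PBS replicate 1 to 0.85 for Gm12250, and the value of Iigp1 is lowest, at 0.46, without IL-33 replicate 1.

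The list of further family genes held 18 names for 16 genes, since RefSeq gives Gbp1 and Irgc as synonyms of Gbp2b and Irgc1, and 13 of the 16 were measured. Of these 13, 2 rose, none fell and 11 did not pass, with a median difference of 0.15 (log2). The pair that rose were both IRG genes. Gm4951, an IRG gene that lies near Iigp1, gave 5.28, 5.61 and 5.64 in PBS and 6.35, 6.17 and 6.31 in IL-33 arrays (log2). It rose by 0.77 ± 0.11 (SE), or 1.70-fold, with an adjusted p of 0.0368 (limma). Gm5431, which the RefSeq table also lists as Irgb9b8, gave 7.55, 7.62 and 7.44 in PBS and 8.07, 8.22 and 8.03 in IL-33 arrays. It rose by 0.57 ± 0.08 (log2, SE; limma adjusted p = 0.0335). In both genes the groups did not overlap and were 0.53 and 0.41 apart. Neither passed in any of the 6 fits without 1 array, with adjusted p of 0.0754 to 0.186 for Gm4951 and 0.0779 to 0.155 for Gm5431 (limma).

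The gene 9930111J21Rik2, listed as Irgb5, differed by 0.39 (log2) without overlap and had an adjusted p of 0.0984 (limma). F830016B08Rik differed by 0.01, with a 95% interval from -0.28 to 0.30, and its sign turned in 3 of the 6 fits without 1 array. Irgc1, known as a testis gene, and Irgq, both on chromosome 7 and not known as interferon targets, differed by -0.19 and -0.12 (log2). Irgc1 was lower in every IL-33 array, with an adjusted p of 0.318 (limma). The effector genes Tgtp1 and Tgtp2, or Irgb6, shared 2 probe sets, which differed by -0.03 ± 0.07 and 0.08 ± 0.33 (log2, SE). The 95% interval of the first probe set, from -0.21 to 0.15, includes the difference of no measured member but Irgm1, at 0.13. On the second probe set the PBS arrays alone ran from 3.39 to 4.44. Its 95% interval, from -0.73 to 0.89, includes the differences of all measured members. A probe set of 9930111J21Rik1, 9930111J21Rik2 and the proteasome activator gene Psme2 together was higher by 0.29 ± 0.10 (log2, SE).

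Of the GBP genes on chromosome 5, Gbp9 gave 5.58, 6.07 and 6.08 in PBS and 6.25, 6.48 and 6.58 in IL-33 arrays (log2), and Gbp10 gave 6.98, 7.30 and 6.97 against 7.32, 7.52 and 7.41. Neither overlapped, with differences of 0.52 ± 0.15 and 0.34 ± 0.10 (log2, SE), and neither passed, with adjusted p of 0.214 and 0.231 (limma). The difference of Gbp9 was 0.36 without PBS replicate 1. Gbp8, Gbp4, Gbp6 and Gbp11 differed by 0.15, 0.10, 0.07 and 0.20 (log2) with overlapping groups, and Gbp6 turned to -0.01 without IL-33 replicate 2. Gbp11 is listed as a transcribed pseudogene. The levels of Gbp4 and Gbp6 were 3.14 to 3.52 and 3.10 to 3.42 (log2), under the lower quartile of the arrays.

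Taking members and other genes as one, 4 of 11 measured IRG genes and 0 of 10 measured GBP genes rose, where 0.275% of all genes did. Gm12185 and Gm4841, described below, are not among the 11. Their median differences were 0.39 for IRG and 0.25 for GBP genes (log2). In 8 of 11 and 4 of 10 the groups did not overlap with IL-33 higher, against 10.3% of all genes. With IL-33 lower this held for 1 IRG and 0 GBP genes, against 10.1%. At an unadjusted p under 0.05, 8 IRG genes were higher and 1 lower, and 5 GBP genes were higher and 0 lower (limma). Over all genes 6.42% were higher and 6.74% lower. Whether IRG and GBP genes differ from each other was not tested.

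**Figure D3:**
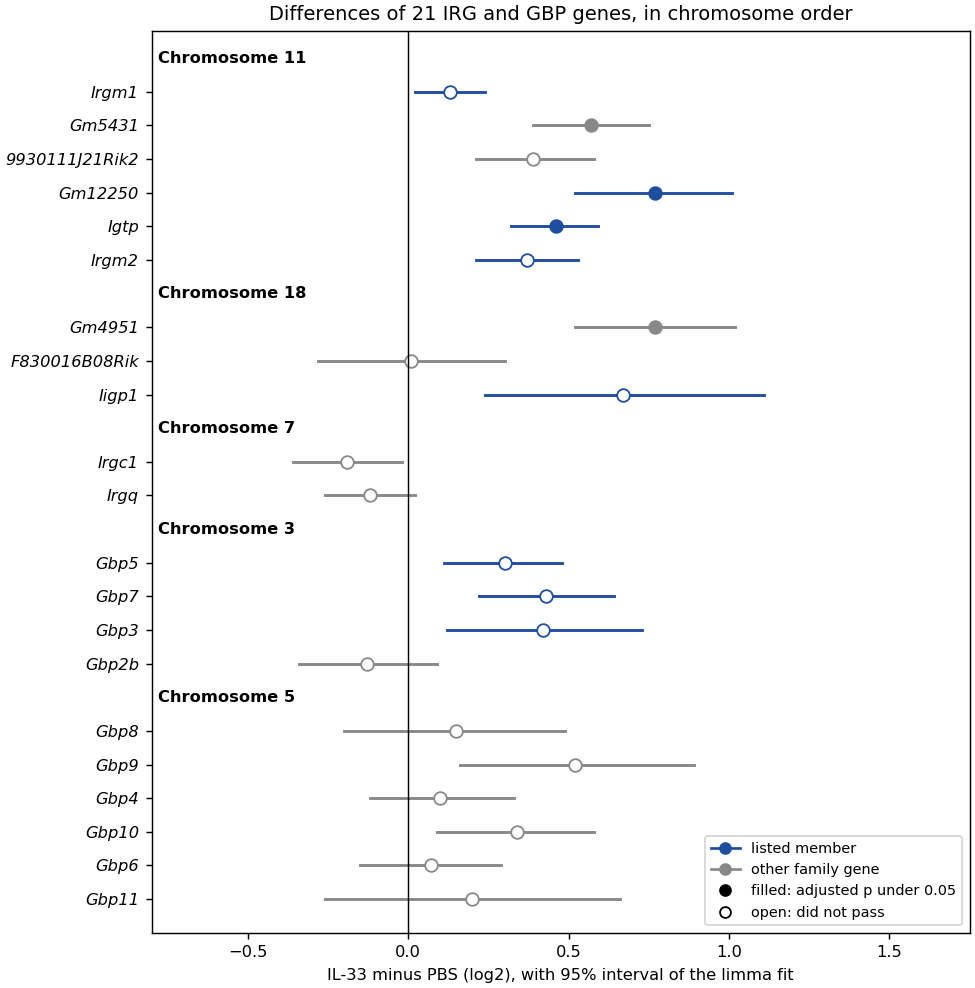
Difference between IL-33 and PBS means (log2) with the 95% interval of the limma fit for 21 IRG and GBP genes, in order along each chromosome; blue marks listed members, grey other family genes, and filled points an adjusted p under 0.05. Filled are Gm5431, Gm12250, Igtp and Gm4951, while the intervals of F830016B08Rik, Irgq, Gbp2b, Gbp8, Gbp4, Gbp6 and Gbp11 include 0.

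The genes beside these clusters gave a local comparison. The nearest measured protein-coding gene of another family was taken on each side of the 5 clusters, on chromosomes 3, 5, 11 and 18. None of these 10 genes passed, and 1 of them, Kyat3, had an unadjusted p under 0.05 (limma). Their differences ran from -0.07 for Smim3 to 0.15 for Kyat3, the gene after Gbp2 (log2). Mrpl22, before Gm12250, differed by 0.07 ± 0.08, and 4930438A08Rik, after Irgm2, by -0.01 ± 0.08 (log2, SE). Between these, Gm12250, Igtp and Irgm2 differed by 0.77, 0.46 and 0.37. Gm12185 and Gm4841, which lie inside the clusters, were not on the list of family genes, although RefSeq gives both an IRG-type synonym. They did not pass and differed by 0.21 ± 0.15 and 0.11 ± 0.13 (log2, SE). On chromosome 3, Pdlim5, before Gbp5, differed by 0.00 ± 0.05 (log2, SE).

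The interferon-gamma pathway was described next, from the cytokine to its other targets, on lists chosen with earlier results of these arrays known. Interferon-gamma itself, Ifng, differed by -0.08 ± 0.11 (log2, SE), and its values were 5.52, 5.60 and 5.60 in PBS and 5.31, 5.43 and 5.73 in IL-33 arrays. Its groups overlapped. The receptor chain Ifngr1 differed by 0.15 ± 0.05 and the chain Ifngr2 by -0.05 ± 0.05 (log2, SE). Of the 19 measured genes of the receptor and signalling list 1 rose, Stat2, none fell and 18 did not pass. Stat2, a partner of IRF9, went from 10.32, 10.38 and 10.40 to 10.84, 10.82 and 10.69 (log2), a difference of 0.42 (limma adjusted p = 0.0408). That p lay between 0.0963 and 0.184 without 1 array. The macrophage factor Irf8 differed by 0.31 and Irf1 by 0.20 (log2), both without overlap, with adjusted p of 0.0551 and 0.198 (limma). Ifng, Irf1, Irf8, Ifngr1 and Ifngr2 were named after their values were seen. The list median was 0.11. In 11 of the 19 the groups did not overlap with IL-33 higher and in 1 with IL-33 lower, against 10.3% and 10.1% of all genes. At an unadjusted p under 0.05 (limma), 9 were higher and 1 lower, against 6.42% and 6.74% of all genes.

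Other macrophage targets of interferon-gamma were mixed. Of 26 measured, 4 rose, none fell and 22 did not pass, with a median of 0.08 (log2). In 12 of the 26 the groups did not overlap with IL-33 higher and in 4 with IL-33 lower, against 10.3% and 10.1% of all genes. At an unadjusted p under 0.05 (limma), 10 were higher and 4 lower, against 6.42% and 6.74% of all genes. Among those that passed, the 3 with the largest difference were the immunoproteasome subunit Psmb9, at 8.26 ± 0.07 against 8.80 ± 0.04 (SD, n = 3 each), the IgG receptor Fcgr1, higher by 0.49, and the chemokine Cxcl10, higher by 0.45 (log2). Adjusted p were 0.0160, 0.0448 and 0.0183 (limma). Each of these 3 lost its call in at least 5 of the 6 fits without 1 array. The chemokine Cxcl11 had a larger difference than these, 0.76 (log2), and did not pass (limma adjusted p = 0.0751). Nos2, the inducible nitric oxide synthase and a classic target, did not pass and was lower in every IL-33 array, at 11.78, 11.60 and 11.67 against 12.02, 11.83 and 12.02 (log2). Cxcl11 and Nos2 were named after their values were seen. Nos2 differed by -0.28 ± 0.08 (log2, SE; limma adjusted p = 0.202).

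Type I interferon and its targets gave 4 genes of 23 that rose, none that fell and 19 that did not pass, with a median of 0.21 (log2). In 19 of the 23 the groups did not overlap with IL-33 higher and in 0 with IL-33 lower, against 10.3% and 10.1% of all genes. At an unadjusted p under 0.05 (limma), 16 were higher and 0 lower, against 6.42% and 6.74% of all genes. A rise without overlap was thus not particular to the GTPases. The RNA-binding gene Ifit2, the nucleic acid sensor Zbp1 and the oligoadenylate synthetase-like gene Oasl2 were higher by 0.62, 0.53 and 0.45 (log2), with adjusted p of 0.0113, 0.0133 and 0.0160 (limma). Without 1 array they passed in 2, 1 and 1 of 6 fits. Interferon-beta, Ifnb1, gave 3.85, 3.84 and 3.93 in PBS and 4.22, 4.08 and 4.18 in IL-33 arrays (log2), a difference of 0.29 (limma adjusted p = 0.104), and it was singled out once its values were known. Its PBS values lay under the lower quartile of the arrays, 4.07 to 4.11, and its IL-33 values lay near it. Whether Ifnb1 was expressed at all cannot be told from such low values. Among 11 other large GTPases, relatives of dynamin, 1 rose, none fell and 10 did not pass, with a median of 0.06. That one, the antiviral GTPase gene Mx1, which RefSeq lists as a transcribed pseudogene, went from 4.50, 4.84 and 4.85 to 6.13, 6.30 and 6.21 (log2), 1.29 apart at the nearest, and passed whichever array was left out. At an unadjusted p under 0.05 (limma), 3 of the 11 were higher and 2 lower, against 6.42% and 6.74% of all genes. Without overlap 3 were higher and 2 lower, against 10.3% and 10.1%.

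Among partners and downstream genes of the GTPases, 1 passed, with a lower level. Over all genes 0.275% passed with a higher level and 0.316% with a lower one. Of 20 autophagy and ubiquitin genes, which help place IRG proteins and GBPs on vacuoles, none passed (limma), with a median of -0.04 (log2). At an unadjusted p under 0.05 (limma), 1 was higher and 1 lower, against 6.42% and 6.74% of all genes. Differences were above 0 in 5 of the 20, against 47.9% of all genes, and below 0 in 15. In 1 the groups did not overlap with IL-33 higher and in 7 with IL-33 lower, against 10.3% and 10.1% of all genes. The ubiquitin ligase Trim21 had the smallest p and differed by 0.28, with an adjusted p of 0.105 (limma). Of 15 caspase-11 and inflammasome genes 1 fell, the cytokine Il1b, by 0.55 on the log2 scale, with an adjusted p of 0.0285 (limma). None rose, and the list median was 0.09. At an unadjusted p under 0.05 (limma), 3 were higher and 1 lower, against 6.42% and 6.74% of all genes. In 2 the groups did not overlap with IL-33 higher and in 2 with IL-33 lower, against 10.3% and 10.1% of all genes. The call of Il1b was lost in all 6 fits without 1 array, with adjusted p of 0.0602 to 0.153. Il18, named after its values were seen, was higher by 0.70 (log2) with an adjusted p of 0.0574 (limma). Of 9 enzymes that attach or handle the lipid anchors of these proteins none passed. At an unadjusted p under 0.05 (limma), 1 of the 9 was higher and 0 lower, and without overlap 1 was higher and 0 lower. The N-myristoyltransferase Nmt2 differed by 0.16 (log2, limma adjusted p = 0.235).

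**Figure D4:**
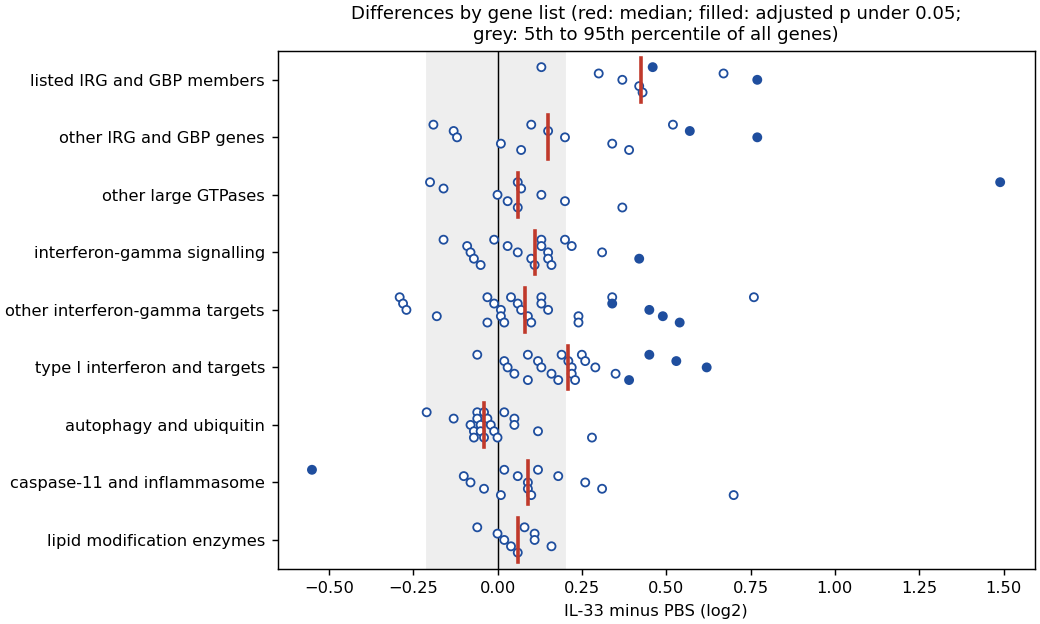
Difference between IL-33 and PBS means (log2) of each gene of 9 lists; red bars are list medians, filled points passed at an adjusted p under 0.05, and the grey band runs from the 5th to the 95th percentile of all genes, -0.21 to 0.20. Of the 8 members all but Irgm1 lie to the right of the band, and Mx1, at 1.49, lies furthest out.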

How the data were processed

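The table the authors deposited gives a log2 value for each probe set on each array, computed with RMA per the submitters' processing notes. The RMA version, its settings and the array's genome build were not given in the labels. RMA includes quantile normalization, so a change common to nearly all genes is lost.

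Of 41345 probe sets, 23521 carried 1 gene symbol in the platform annotation and 1814 several. Each of 22180 genes was represented by the single-symbol probe set with the highest mean. Groups and replicate numbers came from the sample titles. In R 4.3.3, limma 3.58.1 was fitted with 1 group coefficient, no covariate and no filter. P-values were adjusted over all genes (Benjamini-Hochberg, threshold 0.05). Each difference is the IL-33 mean less the PBS mean, and intervals are 95% intervals of the fit. Probe sets shared between genes were taken from a fit of all probe sets. The fit was also run on simulated data. A recovered share was required there only for a rise larger than any member difference, so recovery at the members' sizes is not given.

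The members and the gene lists were chosen with earlier results of these data known. Named were all members and all other family genes, and, of the other lists, the 3 passing members of largest change at most, or the 1 with the smallest p where none passed. Promoter sequences came from RefSeq (GRCm38.p6), where 9 of 10 members matched once family entries on chromosome 18 were left out, and were aligned with Biopython 1.88. Python 3.11.15 and matplotlib 3.10.9 drew the figures. Alternatives tried were 2 filters on low values, 2 other scalings (quantile, 75th percentile), averaged probe sets, array weights, a trended and robust prior variance, a replicate block, a fit of all probe sets, and the omission of each array.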

Additional observations from a re-analysis of the deposited data

How the results depend on the processing

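Every member difference kept its sign in the alternatives run, and the calls moved with the settings. The main fit called 131 genes. Calls numbered 760 when genes under the median of the mean values were left out and 296 when those under the 25th percentile were. They numbered 1000 with a trended and robust prior variance. A fit over all probe sets gave 17, counted in probe sets and not in genes. It was chosen after seeing the data and included controls, because they were not marked in the data used here. The planned fit without controls was not run. Without 1 array 15 to 83 genes were called. In the same order, the 2 members called became 4 (of the 5 left by the filter), 3, 5, 0 and 0 to 1. The median member difference of 0.43 lay between 0.38 and 0.50 without 1 array. The 2 other IRG and GBP genes called became 1 with a further quantile normalization, 0 over all probe sets and 0 without any 1 array. Under the median filter and the trended and robust prior variance, calls became 3 and 4 in the interferon-gamma signalling list, 10 and 13 among its targets, 11 and 14 in the type I interferon list, 2 and 2 in the autophagy list, and 2 and 2 in the inflammasome list. The trended and robust setting gave 3 other large GTPases and 1 lipid modification enzyme. With the 25th percentile filter the signalling and inflammasome lists gave 2 and 2, and with array weights 2 and 2. Over all probe sets the signalling, target, type I and inflammasome lists gave 0 calls each. Without 1 array the signalling and inflammasome lists gave 0, the targets 0 to 2 and the type I list 0 to 3. The sign of F830016B08Rik turned to -0.12 without PBS replicate 2, -0.02 without IL-33 replicate 2 and -0.05 without IL-33 replicate 3, over a range of -0.12 to 0.09, and that of Gbp6 to -0.01 without IL-33 replicate 2, over a range of -0.01 to 0.13. The cause of these moves was not tested, except that fewer genes or fewer arrays enter some fits.

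With the replicate number as a block, 21 genes passed, 0 of them members, 0 other IRG or GBP genes, and 0 in the signalling, target, type I and inflammasome lists. The numbers were not taken as pairs, since nothing states a shared culture or day and deviations of same-numbered arrays correlated at 0.040, 0.057 and 0.019. PBS replicate 3 correlated better with IL-33 replicate 1, at 0.035, than with its own number.

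Signal over background limits the dim genes. The table has no detection calls, and 3 of the 8 measured members had a mean under the median of all genes.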
